A study of Mus musculus with 6 samples.

Results

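The genes described here encode the subunits of the transcription factor NF-kB and the proteins that restrain it. They were taken by name, 10 genes among the 43271 of the deposited count table: the subunit genes Nfkb1, Nfkb2, Rel, Rela and Relb, the inhibitor genes Nfkbia, Nfkbib and Nfkbie, the nuclear family member Nfkbiz, and Tnfaip3. All 10 were found by symbol and all 10 had enough counts to be tested, with no fewer than 485 counts in any library. The 2 groups were cultures of brain microvascular endothelium from wild-type C57BL/6 mice, grown to confluence. In 1 group, 3 libraries came from cultures exposed for 24 h to 5000 ng/ml dolutegravir (DTG), a drug that blocks the integrase of HIV. In the other, 3 libraries came from cultures given only the solvent dimethyl sulfoxide (DMSO). Cells of both groups were passaged 2 to 6 times in medium with serum, growth factors and hydrocortisone, an anti-inflammatory steroid, and separate cultures within a group are not stated in the labels. The p-values therefore rest on the spread among these 6 libraries, part of which may be technical. The library names carry a tag, P4 or P5, that the labels do not define: 2 DTG libraries and 1 DMSO library are P4, and 1 DTG library (replicate 1) and 2 DMSO libraries are P5. The library name of DTG replicate 1 reads DIG where the others of its group read DTG. It was placed in the DTG group by its title, which says DTG treated.

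NF-kB is a dimer of Rel family proteins that is held in the cytoplasm of resting cells by IkB proteins. Receptors for tumour necrosis factor, interleukin 1 and microbial products activate a kinase complex that marks the IkB proteins for destruction, and the freed dimers enter the nucleus and switch on cytokine, chemokine and adhesion genes. Among the genes that NF-kB is known to switch on are several of its own restraints, chiefly Nfkbia (IkB alpha), Nfkbie (IkB epsilon) and Tnfaip3 (A20), and this loop ends the response. In endothelium the pathway is best known for the adhesion molecules and chemokines that draw leukocytes out of the blood. The comparison asks whether these feedback genes moved together with the cytokine genes under dolutegravir.

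The libraries held between 41162353 and 56316335 counts. Endothelial markers were abundant in both groups, with a summed level of the 12 genes of 6878 to 7107 CPM (counts relative to library size, scaled by TMM) in DTG and 8977 to 9445 CPM in DMSO. Of those 12, 7 fell and 1 rose in the test given below, where 29.3% of all genes tested fell and 27.4% rose. Of 12 macrophage and microglia markers 10 were too low to test, C1qa, C1qb and Tyrobp had no count in any library, and the summed level was 121 to 181 CPM in DTG and 86.6 to 101 CPM in DMSO. Nearly all of that sum was Cd68, a lysosomal protein gene, at 140 ± 33.6 CPM in DTG and 91.4 ± 7.35 CPM in DMSO (SD, n = 3 each). In the test given below, Cd68 passed as higher (log2 change 0.62, adjusted p = 0.00559). Lyz2, the other marker of that list with enough counts, passed as lower (log2 change -1.52, adjusted p = 3.17e-05). Its mean was 1.14 CPM in DTG and 3.27 CPM in DMSO. Of 10 markers of other leukocytes, Cd3e, Cd3g, Ms4a1 and Nkg7 had no count, and S100a8 and S100a9 made up nearly all of the sum of 63.9 to 76.6 CPM in DTG and 5.18 to 9 CPM in DMSO. Markers of pericytes and smooth muscle summed to at most 2.51 CPM in DTG and 2.01 CPM in DMSO. Those of fibroblasts summed to 7.86 to 8.68 CPM in DTG and 6.52 to 7.46 CPM in DMSO. Those of astrocytes, oligodendrocytes and neurons summed to 3.72 to 7.35 CPM in DTG and 1.97 to 2.23 CPM in DMSO. On the pericyte, fibroblast and astrocyte lists Pdgfrb, Col1a1 and Tubb3 passed as higher, and no other gene passed. In RNA from whole cultures, fewer cells of a type and less RNA per cell cannot be told apart.

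The family split under dolutegravir. Nfkbib, Nfkbiz and Rel rose, Nfkbie and Tnfaip3 fell, and Nfkb1, Nfkb2, Rela, Relb and Nfkbia did not pass the test. The test was edgeR's quasi-likelihood test on all genes, with Benjamini-Hochberg adjustment and a threshold of 0.05, and each adjusted p below comes from it. Counts of 3 higher and 2 lower members of 10 stand beside a background of 27.4% of 14101 genes called higher and 29.3% called lower, so that 50% of the members and 56.7% of all genes were called. Without DTG replicate 1, 5 members passed as higher and 2 as lower. The groups did not overlap for 5 members, beside 64.2% of all genes tested. The median log2 change was 0.08 over the members and -0.01 over all genes tested. The share of members called was therefore not above that of genes in general, and the results below concern which members moved and which way.

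**Figure D1:**
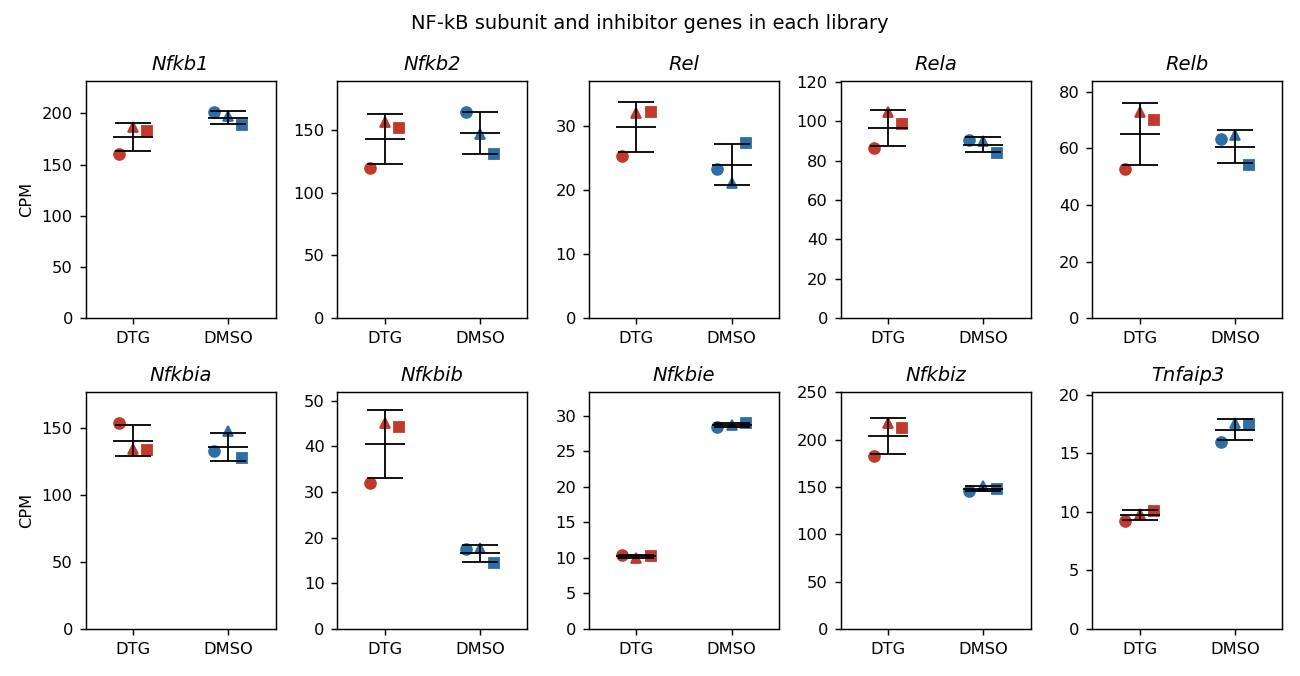
Level of each gene in CPM on a linear axis from 0, in 3 DTG libraries (red) and 3 DMSO libraries (blue), with circle, triangle and square for replicates 1, 2 and 3, and bars for the mean ± SD. Nfkbie and Tnfaip3 lie lower and Nfkbib and Nfkbiz higher in every DTG library than in any DMSO library, whereas the groups overlap for Nfkb2, Rel, Rela, Relb and Nfkbia.

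Among the subunits, Rela encodes p65, the main transactivating partner of the canonical dimer. Rela stood at 86.4, 105 and 98.4 CPM in DTG replicates 1, 2 and 3, against 90.5, 90.1 and 83.7 CPM in DMSO replicates 1, 2 and 3. DTG replicate 1 lay inside the DMSO range and the other 2 DTG libraries above it, and the log2 change of 0.13 (95% interval -0.06 to 0.32) did not pass (adjusted p = 0.217). Nfkb1 encodes p105, the precursor that is cut to p50. It had 161, 187 and 183 CPM in DTG and 201, 197 and 189 CPM in DMSO. Each DTG library lay below each DMSO library, but the difference of -0.15 log2 (interval -0.32 to 0.03) did not pass (adjusted p = 0.14). It did pass as lower when the P tag was a term of the fit (adjusted p = 0.0495), and with upper-quartile and library-size scaling.

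Nfkb2 and Relb encode the precursor p100 and its usual partner, the pair of the non-canonical branch. Nfkb2 had 120, 156 and 152 CPM in DTG, against 164, 147 and 131 CPM in DMSO, a log2 change of -0.05 with an interval of -0.31 to 0.21. Relb had 52.6, 72.9 and 70.0 CPM in DTG, against 63.3, 64.6 and 54.1 CPM in DMSO, a log2 change of 0.10 with an interval of -0.17 to 0.38. In both, DTG replicate 1 was the lowest of the 6 libraries and DTG replicates 2 and 3 were at or near the top. Without DTG replicate 1, Relb and Rela passed as higher (adjusted p = 0.0226 and 0.0167), at log2 changes of 0.27 and 0.24. The annotation places exons of 2 other genes, Psd and AC114539.1, across Nfkb2 on the opposite strand, at 3.26 ± 0.11 and 11.9 ± 0.65 CPM in DTG and 4.55 ± 0.35 and 14.97 ± 3.55 CPM in DMSO (SD, n = 3 each). How far such reads could be told apart depends on the strand setting of the counting, which is not given in the sources used here.

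Rel encodes c-Rel, the subunit best known from lymphocytes. It was at 25.3, 32.0 and 32.1 CPM in DTG, against 23.3, 21.1 and 27.4 CPM in DMSO, so that DTG replicate 1 fell inside the DMSO range. Rel passed by a narrow margin, at 0.32 ± 0.12 log2 (SE, adjusted p = 0.0471). That call was lost without DTG replicate 2 or 3 (adjusted p = 0.118 and 0.128), without DMSO replicate 1 or 2 (0.124 and 0.182), with the P tag as a term (0.0932), and with upper-quartile or library-size scaling (range over the 13 alternatives 0.00811 to 0.31). Among P4 libraries alone the difference was 0.46 log2, and among P5 libraries 0.08.

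Summed per kilobase of transcript, the 5 subunit genes stood at 157 ± 18.5 in DTG and 158 ± 10.1 in DMSO (CPM per kilobase, SD, n = 3 each). Their sum was 136, 171 and 165 in the DTG libraries, against 166, 160 and 146 in the DMSO libraries, and the groups overlapped. Transcript length here is that of the longest principal transcript in the GENCODE M21 annotation, and levels between genes depend on that choice.

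The 3 cytoplasmic IkB genes differed: Nfkbib rose, Nfkbie fell and Nfkbia did not pass. Nfkbia, the classical fast feedback gene, had the highest level of the 10 genes per kilobase of transcript in both groups. It had 154, 134 and 133 CPM in DTG, against 132, 147 and 127 CPM in DMSO, with the groups interleaved. The log2 change was 0.05, with a 95% interval of -0.15 to 0.24 and adjusted p = 0.654. The interval's upper end corresponds to less than the change of Nfkbiz. The sign of the Nfkbia difference depends on scaling, being -0.12 when scaled by library size and -0.043 by upper-quartile factors, and it passed in none of its 13 alternatives of tool, scaling, covariate and library (adjusted p 0.278 to 0.962).

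Nfkbie showed the steepest fall of the family. It stood at 10.4, 10.02 and 10.2 CPM in DTG, against 28.4, 28.6 and 29.0 CPM in DMSO. The 3 libraries of each group lay within 1 CPM of one another. The log2 change was -1.49 ± 0.08 (SE, adjusted p = 5.54e-07), a level 2.81-fold higher in DMSO, and 3.33% of all genes tested had a more negative change. Libraries of the P4 tag alone gave a difference of -1.49 and those of the P5 tag -1.46.

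Nfkbib encodes IkB beta, whose messenger is less dependent on NF-kB itself than that of IkB alpha. It had 31.9, 45.2 and 44.4 CPM in DTG, against 17.4, 17.8 and 14.5 CPM in DMSO. All DTG libraries lay above all DMSO libraries, with DTG replicate 1 the lowest of the treated ones. The log2 change was 1.29 ± 0.14 (SE, adjusted p = 3.54e-05), and the 2 tags taken alone gave 1.36 (P4) and 0.99 (P5). Its exons meet those of Sirt2 on the opposite strand in the annotation. Sirt2 was at 108, 94.1 and 98.4 CPM in DTG and 98.3, 101 and 87.6 CPM in DMSO, and did not pass (log2 change 0.06, adjusted p = 0.543).

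**Figure D2:**
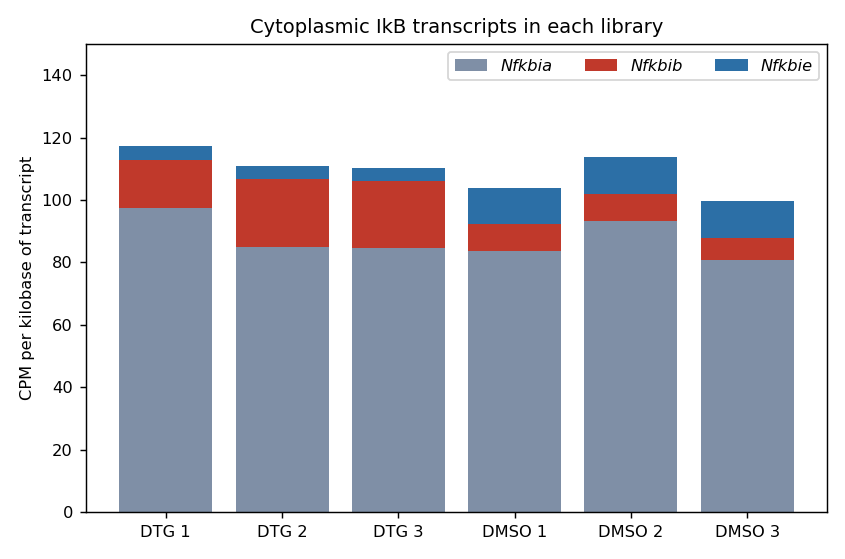
Stacked level of the 3 cytoplasmic IkB genes in each library, in CPM per kilobase of transcript on a linear axis from 0, with the 3 DTG libraries left of the 3 DMSO libraries. The Nfkbib part (red) is larger and the Nfkbie part (blue) smaller in every DTG library, while Nfkbia (grey) remains most of each bar.

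Nfkbib was higher relative to Nfkbie in every DTG library than in any DMSO library. Per kilobase of the longest principal transcript, the level of Nfkbib over that of Nfkbie was 3.62, 5.33 and 5.14 in the DTG libraries, against 0.724, 0.734 and 0.589 in the DMSO libraries. With the shortest principal transcript of Nfkbib, an alternative chosen after seeing the data, it was 6.00, 8.84 and 8.52 in DTG, against 1.20, 1.22 and 0.976 in DMSO. Which of the 2 genes was higher in DMSO therefore depends on the length, while Nfkbib was the higher in DTG under both. With the longest transcripts, as in the plot of stacked levels, Nfkbib held 17.5% ± 3.71 of the summed level of the 3 IkB genes in DTG and 7.59% ± 0.55 in DMSO. Nfkbie held 3.72% ± 0.07 in DTG and 11.2% ± 0.81 in DMSO. Nfkbia kept the bulk, at 78.8% ± 3.77 in DTG and 81.2% ± 0.76 in DMSO. The summed level of the 3 genes was 117, 111 and 110 CPM per kilobase in DTG, against 104, 114 and 99.7 in DMSO, with overlapping groups. These mixtures were described after the changes of their parts were known and carry no test.

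Nfkbiz encodes IkB zeta, a nuclear protein of the IkB fold that assists NF-kB at a set of secondary genes, Il6 among them, rather than holding it in the cytoplasm. It had 183, 218 and 212 CPM in DTG, against 146, 152 and 148 CPM in DMSO, without overlap. The log2 change was 0.46 ± 0.08 (SE, adjusted p = 0.00093), or 0.56 among P4 and 0.29 among P5 libraries, and it was 0.29 with library-size scaling.

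Tnfaip3 encodes A20, which edits ubiquitin chains on signalling proteins upstream of the kinase complex and so damps the pathway. It had 9.25, 9.86 and 10.1 CPM in DTG, against 16.0, 17.6 and 17.5 CPM in DMSO, again without overlap. The log2 change was -0.81 ± 0.09 (SE, adjusted p = 5.48e-05), or -0.68 among P4 and -0.92 among P5 libraries. Nfkbib, Nfkbie, Nfkbiz and Tnfaip3 each held their direction and their call in all 13 alternatives.

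**Figure D3:**
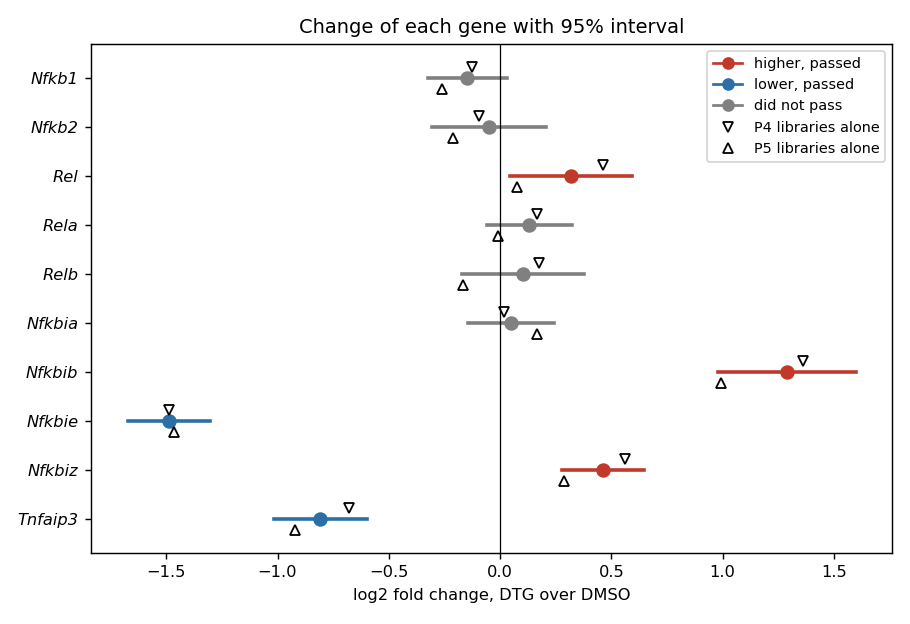
Log2 fold change of DTG over DMSO for each gene (filled circle) with its 95% interval from edgeR (line), and the difference within the P4 (open triangle down) and the P5 libraries (open triangle up). The intervals of Nfkbib and Nfkbie lie on opposite sides of 0, at 0.98 to 1.60 and -1.67 to -1.31, and for 8 of the 10 genes both tags give the sign of the main estimate.

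Per kilobase of transcript, the order of the levels in DTG ran from Tnfaip3 (2.20 ± 0.10 CPM per kilobase) through Rel (3.99 ± 0.52), Nfkbie (4.19 ± 0.08), Nfkbib (19.7 ± 3.62), Relb (29.5 ± 4.97), Rela (35.5 ± 3.42), Nfkb1 (42.9 ± 3.37), Nfkb2 (45.3 ± 6.30) and Nfkbiz (49.6 ± 4.60) to Nfkbia (89.0 ± 7.29). In DMSO it ran from Rel (3.20 ± 0.43) through Tnfaip3 (3.85 ± 0.21), Nfkbib (8.03 ± 0.88), Nfkbie (11.8 ± 0.12), Relb (27.5 ± 2.58), Rela (32.4 ± 1.40), Nfkbiz (36.1 ± 0.71), Nfkb2 (46.9 ± 5.31) and Nfkb1 (47.5 ± 1.56) to Nfkbia (86.0 ± 6.61), all as SD with n = 3. The order of Nfkbib and Nfkbie in DMSO turned with the shortest principal transcript in 2 of the 3 libraries. Neighbours closer than the larger of their 2 SDs were Rel and Nfkbie in DTG, Nfkb1, Nfkb2 and Nfkbiz in DTG, and Nfkb2 and Nfkb1 in DMSO. The treated libraries also differed among themselves. DTG replicate 1, the only P5 library of its group, had the lowest of the 3 DTG levels in 8 of the 10 genes and the highest in the other 2, Nfkbia and Nfkbie. Tag and library cannot be told apart within that group.

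Upstream sequences are shown for the 3 cytoplasmic IkB genes and Tnfaip3, because these restraints moved in different directions. Each is the run of 250 bases before the annotated start, taken by symbol from RefSeq (GRCm38.p6) and printed in the direction of the gene, and for Tnfaip3 from the first of its 2 starts in the table. Capitals mark every stretch of 10 bases on either strand that opens with GGG and closes with CC, with any 5 bases between, a loose form of the letters NF-kB binds. Matches that overlap are joined.
Nfkbia (chr12:55492648-55492897, minus strand): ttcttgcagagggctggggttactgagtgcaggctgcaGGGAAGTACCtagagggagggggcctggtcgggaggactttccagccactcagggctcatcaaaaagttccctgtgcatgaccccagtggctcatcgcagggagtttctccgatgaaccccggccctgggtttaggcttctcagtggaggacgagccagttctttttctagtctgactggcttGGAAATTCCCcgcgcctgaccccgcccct
Nfkbie (chr17:45555450-45555699, plus strand): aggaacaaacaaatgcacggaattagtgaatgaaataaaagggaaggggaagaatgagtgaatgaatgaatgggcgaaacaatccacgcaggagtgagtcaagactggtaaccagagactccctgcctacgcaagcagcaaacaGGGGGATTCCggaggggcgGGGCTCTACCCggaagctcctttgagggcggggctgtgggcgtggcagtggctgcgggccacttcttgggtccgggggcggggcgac
Nfkbib (chr7:28766645-28766894, minus strand): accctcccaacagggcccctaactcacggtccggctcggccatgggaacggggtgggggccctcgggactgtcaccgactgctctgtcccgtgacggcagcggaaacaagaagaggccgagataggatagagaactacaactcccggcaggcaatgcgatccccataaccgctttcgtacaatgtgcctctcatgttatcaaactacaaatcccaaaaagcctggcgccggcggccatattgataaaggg
Tnfaip3 (chr10:19015411-19015660, minus strand): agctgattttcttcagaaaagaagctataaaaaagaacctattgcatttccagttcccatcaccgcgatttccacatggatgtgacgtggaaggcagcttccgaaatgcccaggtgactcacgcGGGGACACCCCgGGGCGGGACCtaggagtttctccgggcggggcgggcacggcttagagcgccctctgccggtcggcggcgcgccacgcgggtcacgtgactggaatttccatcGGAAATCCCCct
The loose form occurred in 45.8% of all 32851 windows of this length in the table, and a narrower form of it, in which the 5 inner bases read NNTTN, in 4.11%. Nfkbia held the narrower form once, on the opposite strand, between 29 and 20 bases before the start, where the printed strand reads GGAAATTCCC. Tnfaip3 held it once, also on the opposite strand, between 12 and 3 bases before the start, where the printed strand reads GGAAATCCCC. Nfkbie held only the loose form, among others as GGGGGATTCC between 106 and 97 bases before the start, and Nfkbib held neither in this window. Of the 7 members with an entry, the narrower form occurred in 4 (Nfkb2, Rel, Nfkbia and Tnfaip3), whose log2 changes were -0.05, 0.32, 0.05 and -0.81. That count is per gene, over all starts of the gene. Per window, the unit of the 4.11%, 5 of the members' 10 windows held it, and some windows belong to the same gene. The match is a description of the letters and says nothing of binding in these cells.

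Among the cytokine genes NF-kB is known to switch on, Il6, Il12b, Il23a, Cxcl2, Cxcl1, Csf3, Cxcl3 and Lif rose by more than any member. Others rose less, fell, did not pass or were too low to test. Cxcl3 and Lif, up by 3.39 and 1.51 log2, were low in both groups. Their means were 0.229 and 0.361 CPM in DTG, against 0.0199 and 0.127 CPM in DMSO. Il6 had 204, 210 and 218 CPM in DTG, against 2.03, 3.07 and 3.87 CPM in DMSO, a log2 change of 6.15 ± 0.18 (SE, adjusted p = 1.97e-08). The neutrophil chemokine gene Cxcl2 had 213, 346 and 337 CPM in DTG, against 11.1, 15.6 and 15.6 CPM in DMSO, and Cxcl1 rose by 2.22 log2. Csf3, the granulocyte growth factor gene, rose by 2.31 log2. Il12b and Il23a, whose products pair as interleukin 23, rose by 6.91 and 6.89 log2 and averaged 21.5 ± 9.28 and 35.0 ± 12.1 CPM in DTG, against 0.175 ± 0.067 and 0.286 ± 0.074 CPM in DMSO. Ccl2, the monocyte chemokine gene, rose by only 0.61 ± 0.09 log2, to 249 ± 21.6 CPM in DTG, against 163 ± 10.9 CPM in DMSO. Of 20 genes on the cytokine list 17 could be tested, with a median of 0.61 log2. Among them 10 rose and 4 fell, beside 27.4% of all genes tested called higher and 29.3% lower. Those that fell were Csf1 (log2 change -0.90), Cx3cl1 (-0.89), Cxcl10 (-1.03) and Ccl20 (-0.85), the last 2 below 3 CPM in every library. Tnf and Il1b, the classical inducers of the pathway, had 0 and 1 counts over all DTG libraries and 1 and 0 over all DMSO libraries. In Il6, Cxcl1, Cxcl2, Csf3, Il12b and Il23a, DTG replicate 1 was the lowest treated library, and in Ccl2, Csf1 and Cx3cl1 the highest. It was also the lowest in 8 of the 10 members, whether they rose, did not pass or, as Tnfaip3, fell. Beside these values, S100a8 and S100a9, which neutrophils carry but which are not restricted to them, stood at 61.5 ± 5.37 and 7.82 ± 1.18 CPM in DTG and 7.09 ± 1.93 and 0.099 ± 0.083 CPM in DMSO, while the leukocyte gene Ptprc (CD45) had 4 counts in all DTG and 1 in all DMSO libraries.

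**Figure D4:**
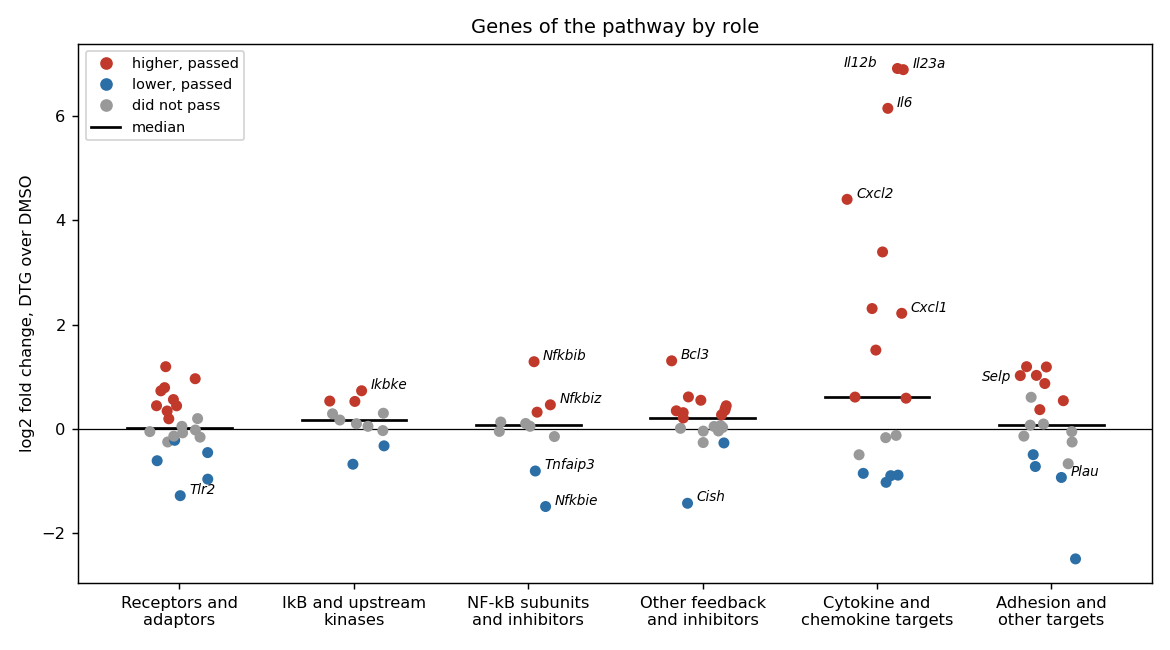
Log2 fold change of DTG over DMSO for every tested gene of 6 lists, arranged from receptors to targets, coloured by whether the gene passed as higher (red), passed as lower (blue) or did not pass (grey), with a black line at each list's median. The members lie between -1.49 and 1.29, while Il6, Il12b and Il23a lie above 6.

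Adhesion genes, the other known output in endothelium, were divided. Selp and Sele, which encode the P- and E-selectins that slow rolling leukocytes, rose by 1.03 and 1.02 log2. Vcam1 stood at 56.8 ± 4.96 CPM in DTG and 53.2 ± 3.56 CPM in DMSO and did not pass (log2 change 0.09, adjusted p = 0.389). Icam1 was below 1 CPM in every library and did not pass (adjusted p = 0.172). Madcam1, which encodes an adhesion molecule for leukocyte homing, had 6.26, 12.9 and 13.0 CPM in DTG, against 67.8, 63.8 and 49.6 CPM in DMSO, without overlap, and fell by 2.49 log2 (SE 0.28, adjusted p = 0.000284). The survival gene Cflar rose by 0.87 log2, and Plau, which encodes the plasminogen activator urokinase, fell by 0.93 log2. On this list of 20 genes 18 were tested, with a median of 0.08 log2 that was -0.09 with library-size scaling. Among them 7 rose and 4 fell, beside 27.4% of all genes tested called higher and 29.3% lower.

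Among 20 further feedback and inhibitor genes, 19 were tested, with a median log2 change of 0.21. Of these, 10 rose and 2 fell, beside 27.4% of all genes tested called higher and 29.3% lower. Scaled by library size alone, 4 were higher and 4 lower, and 1 was lower without DTG replicate 2 or 3 or DMSO replicate 1 or 2. Bcl3, a nuclear IkB family member, rose most, to 39.0, 38.3 and 37.3 CPM in DTG, against 14.0, 17.5 and 14.8 CPM in DMSO, a log2 change of 1.31 ± 0.10 (SE, adjusted p = 3.59e-06). Nfkbid, the remaining nuclear IkB gene on the list, was near 1 CPM in both groups and differed by 0.03 log2 (adjusted p = 0.921). Zc3h12a, which encodes the ribonuclease Regnase-1 that degrades Il6 messenger, rose by 0.44 log2, and Cyld, a deubiquitinase of the pathway, by 0.31. Rnf11, a partner of A20, rose by 0.61 log2. Tnip1, which encodes a protein that binds A20, fell by 0.27 log2 (adjusted p = 0.0227), less than Tnfaip3, which fell by 0.81. Cish, a feedback gene of cytokine receptor signalling, fell by 1.43 log2 (adjusted p = 3.87e-06). In the main fit more of these genes thus rose than fell, unlike the genes tested in general, whose shares called higher and lower were close. That excess was absent with library-size scaling.

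The median over 11 kinase genes was 0.17 log2. Of these, 3 rose and 2 fell, beside 27.4% of all genes tested called higher and 29.3% lower. Without DTG replicate 1, 5 rose, and fewer than 2 fell without any 1 of the other 5 libraries (0 without DTG replicate 2 or 3 or DMSO replicate 2, and 1 without DMSO replicate 1 or 3). Chuk, which encodes IKK alpha, had 111, 137 and 138 CPM in DTG, against 86.9, 79.4 and 101 CPM in DMSO, and rose by 0.53 log2 (SE 0.11, adjusted p = 0.00217). Ikbkb and Ikbkg, for IKK beta and the scaffold NEMO, had log2 changes of 0.05 and 0.17, which did not pass. Ikbke, an IKK-related kinase gene, rose by 0.73 log2 to 330 ± 5.17 CPM in DTG, against 199 ± 10 CPM in DMSO. Map3k14, the kinase gene of the non-canonical branch, differed by 0.29 log2 (adjusted p = 0.11). Tab2, for an adaptor of the upstream kinase TAK1, rose by 0.53 log2, and Tab1 fell by 0.33.

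Of 23 receptor and adaptor genes 22 were tested, with a median of 0.01 log2. Among them 9 rose and 5 fell, beside 27.4% of all genes tested called higher and 29.3% lower. Scaled by library size alone, 8 fell and the median was -0.16. The interleukin 1 receptor gene Il1r1 had 21.2, 19.9 and 21.5 CPM in DTG, against 40.5, 39.2 and 42.8 CPM in DMSO, a log2 change of -0.96 ± 0.08 (SE, adjusted p = 6.23e-06). The bacterial lipoprotein receptor gene Tlr2 fell by 1.28 log2. Myd88, the adaptor both receptors use, rose by 0.79 log2 and Cd40, a receptor of the tumour necrosis factor family, by 1.19. Birc3, which encodes a ubiquitin ligase and is itself a known NF-kB target, was at 13.1 ± 0.52 CPM in DTG and 13.6 ± 0.68 CPM in DMSO and did not pass (log2 change -0.05, adjusted p = 0.648).

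The genes nearest in profile were sought among 12268 named genes, by the mean absolute difference in centred log2 CPM over the 6 libraries. For Tnfaip3 they were Ccnb1, Tpx2 and Ric8b, at 0.018, 0.029 and 0.038 log2, with changes of -0.80, -0.77 and -0.79. Ccnb1 and Tpx2 encode a mitotic cyclin and a spindle protein. For Nfkbiz they were Tada2b, Thumpd1 and Nr2c1, at 0.017, 0.018 and 0.019 log2, with changes of 0.46, 0.50 and 0.46 log2. For Nfkbia they were Mrm1, Eif2d and Fbxo34, at 0.015, 0.020 and 0.023 log2, with changes of 0.04, 0.06 and 0.01 log2. Whether a member shares a function with its nearest genes was not tested.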

How the data were processed

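The authors deposited raw counts per Ensembl gene, whole numbers without normalization, for 6 libraries made with a strand-preserving poly(A) kit, per the labels' protocols. The genome build was GRCm39, per the submitters' processing notes. Neither aligner nor counter, strand setting nor annotation version is given in the sources used here. Symbols from a reference table matched 89.2% of 43271 identifiers. Genes were kept by filterByExpr, scaled by TMM and tested with edgeR 4.0.16 (R 4.3.3), group as the only term, robust estimation, Benjamini-Hochberg adjustment over 14101 genes. SE was taken as the absolute log2 change over the root of F. Within-tag differences are of mean log2 CPM with a prior count of 2. Alternatives were DESeq2 1.42.0, limma-voom (limma 3.58.1), other scalings, filters, threshold, a replicate block, the P tag, and each library left out; 13 were run on each member. The pipeline was run on simulated data in which few genes changed. That run cannot speak to scaling where most genes tested were called, as here. Lengths came from GENCODE M21 and sequences from RefSeq, both GRCm38, by gene identifier or symbol, and protein sequences were not used here. Figures used matplotlib 3.10.9 under Python 3.11.15.

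The members and lists were chosen with earlier results of these data known. Named genes were the members, the 4 smallest p-values of each pathway list, 20 fixed genes and the 3 nearest profiles of Nfkbia, Nfkbiz and Tnfaip3. Cxcl3, Lif, Tnf, Il1b, Csf1, Cx3cl1, Cxcl10, Ccl20, Madcam1, marker genes and overlapping genes were named after their values were seen. Cd40, Birc3 and Traf1 stand on more than 1 list. Depth was 41162353 to 56316335 counts per library, but counting error depends on the counts of each gene. Il12b, Il23a and Cxcl3 had 27, 45 and 3 counts over all DMSO libraries, so the sizes of their changes are uncertain. Two-sided tests were used throughout.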

Additional observations from a re-analysis of the deposited data

How the results depend on the processing

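Directions and calls of Nfkbib, Nfkbie, Nfkbiz and Tnfaip3 held in all 13 alternatives. Without DTG replicate 1, 5 members passed as higher, and the count ranged from 2 to 5 over the libraries left out. Signs turned, without passing, for Nfkb2 without DTG replicate 1 (0.10) or DMSO replicate 1 (0.03; -0.13 to 0.10 over the libraries left out), for Rela and Relb with library size alone (-0.041 and -0.070), and for Nfkbia with library size alone (-0.12) or upper-quartile factors (-0.043); library size shifts the median of all genes by -0.17 log2 by construction, and the other causes were not tested. Library size alone called 2536 genes higher, where TMM called 3860, which is 30.7% of its calls and 38.2% with upper-quartile factors. It gave 8 lower receptor genes, and 4 higher and 4 lower feedback genes. Over the libraries left out, 3 to 5 kinase genes rose and 0 to 2 fell, and 1 to 2 feedback genes fell. The title numbers did not pair the libraries (correlations of same-numbered deviations -0.28, 0.01 and -0.05, all between unlike P tags). DTG and DMSO libraries that shared the P tag gave 0.17, 0.20, 0.11 and 0.17. The remaining pairs of unlike tag gave -0.16 and -0.16. Whether the deviations follow the tag was not tested. With the replicate block 3543 genes were higher and 3728 lower, 3 and 2 members as before, and 1 kinase gene fell in place of 2. Strand setting, isoforms and protein levels were not analysed here.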
